A study of Mus musculus with 73 samples.

Results

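Mammary adenocarcinomas of 2 mouse genotypes were compared across all genes: 3 tumours of genotype KB1(L1363P)P, called L1363P tumours here, and 5 KP tumours. They were chosen by their labels as every adenocarcinoma of these genotypes whose title carries sequencing run 5625, which gave 8 of the 73 samples of the series. The L1363P tumours were numbers 7.2, 26.2 and 52, and the KP tumours were 89.01A, 90.01A, 131.03A, 39 and 40. All 8 are labelled 100% epithelial, and neither treatment, age nor strain is given. Polyadenylated RNA was sequenced as strand-specific libraries, and the deposited table held between 13103749 counts (KP 40) and 16207436 counts (L1363P 7.2) per adenocarcinoma. In the established KP model a Cre recombinase under the keratin 14 promoter removes Trp53 from mammary epithelial cells. The KB1(L1363P)P label adds a Brca1 allele with the change L1363P, a leucine replaced by proline. The labels do not say whether that allele was the only Brca1 copy, nor whether each tumour came from a different animal. The p-values below therefore measure spread between samples, which may not be separate animals. For the main test that spread was estimated over all tumours of run 5625, including other tumour types, not over these 8 alone.

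BRCA1 is needed to repair DNA double-strand breaks by homologous recombination, in which a broken end is copied from an intact sister DNA strand. A short coiled coil of BRCA1 binds PALB2, which brings BRCA2 to the break, and BARD1 is the partner that stabilises BRCA1. Tumours of KP mice lack p53, the factor that otherwise halts division after DNA damage, while keeping the normal Brca1 gene. The changed codon is shown because it is what separates the genotypes by label. In transcript Brca1-201 (GENCODE M21, build GRCm38, minus strand) the codon of the leucine named in L1363P is CTG, at chr11:101517407-101517409, in exon 12 of 23, and the protein has 1812 residues. The reference letters of chr11:101517377-101517439, with the leucine codon in capitals, read 5′ to 3′ on the coding strand:
Brca1, codon of L1363P: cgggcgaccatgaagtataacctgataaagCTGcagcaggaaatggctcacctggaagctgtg
Counts per gene do not show this codon, so the L1363P label itself was not checked against reads.

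KP 90.01A went against its epithelial label. Epcam, the surface adhesion protein that defines epithelial cells, was at 713, 640.0 and 1539.7 CPM (counts relative to library size, scaled for library composition) in L1363P 7.2, 26.2 and 52, against 648, 1.47, 836, 632 and 608 CPM in KP 89.01A, 90.01A, 131.03A, 39 and 40. Krt14, a basal keratin, was at 2.81 CPM in KP 90.01A, against 102 to 1017 CPM in the 3 L1363P tumours and 157 to 649.8 CPM in the other 4 KP tumours. Vim, an intermediate filament of mesenchymal cells, reached 1969.6 CPM in KP 90.01A, the highest of the 8. The 23 epithelial genes summed to 2794 to 9407 CPM in L1363P tumours, against 2931 to 6103 CPM in the other 4 KP tumours and 636 CPM in KP 90.01A. Counts of called genes are therefore given with all 5 KP tumours and again without 90.01A, and each called gene described here that missed the threshold without it is named as such. Yap1, a transcriptional co-activator of cell growth, was at 8775 CPM in KP 90.01A, against 147 to 411 CPM in the other 7 tumours.

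Few genes separated the genotypes. Those higher in L1363P adenocarcinomas included Cdc6, Pole2 and Pold1, which act in DNA copying, and Hjurp and Kif18b, which act in cell division. Those lower included Mmp11, a matrix metalloproteinase, Slit2, a guidance ligand, and Ephb1, an ephrin receptor. Across 16147 genes, 43 (0.266%) passed the test as higher in L1363P than in KP adenocarcinomas and 23 (0.142%) as lower (edgeR quasi-likelihood test, Benjamini-Hochberg adjusted p under 0.05). The fold change was at least 2-fold, a log2 change of 1, for 33 of the 43 and for 20 of the 23. Without KP 90.01A, 15 genes (0.0931%) were higher and 10 (0.0621%) lower, of 16114 tested. Of these 25 genes, 23 had been called in the same direction with all KP tumours, and Drosha and Ces1d were the other two. All 43 and all 23 kept their direction without 90.01A. Of the 43, 30 had every L1363P tumour above every KP tumour (background 2.27%), and of the 23, 20 had every L1363P tumour below (background 2.11%). The genes were called on these same values, so their separation is not a further test. Without 90.01A the background of such separation was 2.97% higher and 3.00% lower. At an unadjusted p under 0.05, 7.42% of genes were higher and 10.4% lower, and the median log2 fold change of all genes was -0.04. Leaving out KP 131.03A gave 309 higher and 229 lower, and leaving out L1363P 26.2 gave 20 higher and 1 lower. Of the 66 genes, 58, 16 and 23 were still called when L1363P 7.2, 26.2 or 52 was left out, against 45, 23, 66, 35 and 26 when KP 89.01A, 90.01A, 131.03A, 39 or 40 was. These calls rest on a spread estimated over 29 tumours of the same run; fitted on the 8 adenocarcinomas alone, 0 genes passed in either direction (432 higher and 566 lower at an unadjusted p under 0.05), while the DESeq2 Wald test on the 29 called 266 higher and 520 lower.

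The Brca1 gene itself was not called. Brca1 was at 49.9, 70.2 and 83.9 CPM in L1363P 7.2, 26.2 and 52, against 17.8, 38.6, 36.6, 55.8 and 21.2 CPM in KP 89.01A, 90.01A, 131.03A, 39 and 40. KP 39 lay inside the L1363P range and the other 4 KP tumours below it. The log2 fold change was 1.00 (SE 0.31, edgeR adjusted p = 0.123), and 1.05 without 90.01A (edgeR adjusted p = 0.164). DESeq2 put it at 0.97 with an adjusted p of 0.0494, just past the threshold. Brca2, whose product acts after BRCA1 in homologous recombination, was at 29.7, 40.6 and 62.2 CPM in L1363P tumours, against 11.4, 30.9, 29.3, 17.5 and 16.4 CPM in KP tumours. Of the KP tumours only 90.01A exceeded the lowest L1363P tumour, and the log2 fold change was 1.07 (SE 0.33, edgeR adjusted p = 0.123).

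Bard1, which encodes the partner of BRCA1 in its ubiquitin ligase, was at 25, 38.6 and 50.1 CPM in L1363P tumours, against 6.19, 7.43, 30.4, 14.4 and 13.2 CPM in KP tumours. KP 131.03A alone overlapped the L1363P range. Its log2 fold change was 1.40 (SE 0.33, edgeR adjusted p = 0.0578, and 0.111 without 90.01A), so that it missed the threshold. It passed by DESeq2 (adjusted p = 0.00672) and limma (adjusted p = 0.0385), and by edgeR without L1363P 7.2 (adjusted p = 0.0256) or KP 131.03A (adjusted p = 0.00172). Palb2, whose product bridges BRCA1 and BRCA2, was at 21.2, 9.40 and 15.5 CPM in L1363P tumours, against 7.15, 9.31, 15.8, 9.78 and 8.18 CPM in KP tumours; the groups overlapped (log2 fold change 0.61, SE 0.28, edgeR adjusted p = 0.247). Trp53, the gene targeted in this model, was at 22.8 to 24.3 CPM in L1363P tumours and at 15.1 to 25.7 CPM in KP tumours (log2 fold change 0.16, SE 0.30, edgeR adjusted p = 0.826). Exact two-sided permutation tests over the 56 ways to choose 3 of 8 tumours gave p = 0.0714 for Brca1, 0.0536 for Brca2, 0.0714 for Bard1, 0.214 for Palb2 and 0.375 for Trp53, where the smallest possible p is 0.0357. Adjusted over the 5 genes, the exact p was 0.119 for Brca1, Brca2 and Bard1.

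**Figure D1:**
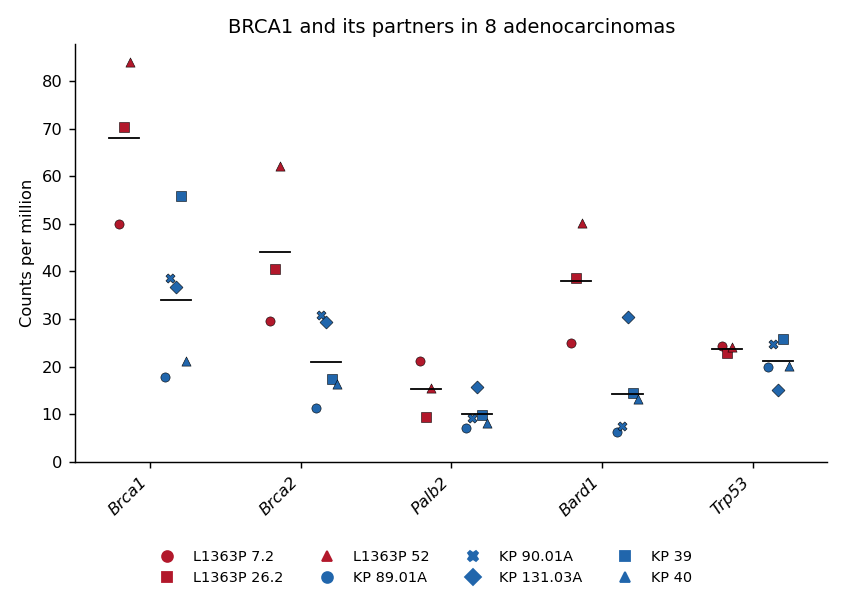
Levels of Brca1, Brca2, Palb2, Bard1 and Trp53 in CPM on a linear axis, one point per adenocarcinoma, L1363P left of KP, with a bar at each group mean. Brca1, Brca2 and Bard1 have higher means in L1363P tumours, with at least 1 KP tumour inside the L1363P range for each, and Trp53 lies at one level in both groups.

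All 19 genes of a list of replication factors had a log2 fold change above 0, with a median of 0.97 against -0.04 over all genes; 15 of the 19 had an unadjusted p under 0.05 (background 7.42%), 4 did not overlap between the groups (background 2.27%), and 1, Cdc6, passed the adjusted test. The number passing was 8 without L1363P 7.2, 10 without KP 131.03A, 0 without KP 89.01A, KP 40, L1363P 26.2 or L1363P 52, and 11 by DESeq2. Over all genes the main fit called 43 of 16147 higher. The count was 142 of 16692 without L1363P 7.2, 309 of 16033 without KP 131.03A and 266 of 16147 by DESeq2. The summed level of the list was 1472, 2642 and 2391 CPM in L1363P 7.2, 26.2 and 52, against 792, 1266, 1726, 1110.2 and 791 CPM in KP 89.01A, 90.01A, 131.03A, 39 and 40. KP 131.03A had the highest sum among the KP tumours and was above L1363P 7.2. Cdc6, which loads the MCM helicase at replication origins, was at 33.1, 49.3 and 44.3 CPM in L1363P tumours, against 8.75, 24.2, 16.5, 20.7 and 8.82 CPM in KP tumours. Every L1363P tumour was above every KP tumour, and the log2 fold change was 1.42 (SE 0.32, edgeR adjusted p = 0.0441, and 0.0316 without 90.01A). Cdc6 missed the threshold without KP 89.01A, KP 40, L1363P 26.2 or L1363P 52, with an edgeR adjusted p of at most 0.189. Mcm2 and Mcm10, other factors of the replicative helicase, had log2 fold changes of 1.06 (SE 0.28, edgeR adjusted p = 0.0786) and 1.2 (SE 0.28, edgeR adjusted p = 0.0556) and did not pass; both were among those passing without L1363P 7.2, without KP 131.03A and by DESeq2.

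Polymerase genes outside that list were also called higher. Pole2, the second subunit of the leading-strand DNA polymerase epsilon, was at 21.7, 51.4 and 20.7 CPM in L1363P tumours, against 11.7, 9.11, 9.45, 10.6 and 13.8 CPM in KP tumours. The groups did not overlap, and L1363P 26.2 was the highest tumour by a wide margin (log2 fold change 1.52, SE 0.26, edgeR adjusted p = 0.0138, and 0.0316 without 90.01A). Pold1, the catalytic subunit of the lagging-strand polymerase delta, was at 39.8, 38.2 and 63.8 CPM in L1363P tumours, against 12.2, 21.8, 29.2, 18.0 and 15.1 CPM in KP tumours. Again the groups did not overlap (log2 fold change 1.29, SE 0.24, edgeR adjusted p = 0.0169, and 0.0316 without 90.01A). Pcna, the sliding clamp that holds these polymerases on DNA, was at 108, 143 and 193 CPM in L1363P tumours, against 65.9, 64.8, 96.1, 79.0 and 71.3 CPM in KP tumours. All 3 L1363P tumours were above the KP tumours (log2 fold change 0.97, SE 0.19, edgeR adjusted p = 0.0199), but without 90.01A the adjusted p was 0.0515. Chtf18, part of the loader that places PCNA on DNA, rose by 1.2 on the log2 scale (SE 0.24, edgeR adjusted p = 0.0267), and Dnmt1, which copies DNA methylation onto new strands, rose by 1.14 (SE 0.25, edgeR adjusted p = 0.037). Neither passed without 90.01A (edgeR adjusted p = 0.0675 for Chtf18 and 0.0757 for Dnmt1). Of tumours left out one at a time, L1363P 26.2 ended the call of Pole2 (edgeR adjusted p = 0.12) and L1363P 52 that of Pold1 (edgeR adjusted p = 0.0707).

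The promoters of Cdc6, Pole2 and Pold1 are shown because they are the called-higher genes whose sequence near the start holds an E2F-type motif, the element through which E2F factors drive genes of DNA synthesis. The motifs searched were TTTGGCGC and TTTCCCGC on both strands, in the 300 bases ending 50 bases into each gene (RefSeq, GRCm38.p6), and matches are in capitals. Each line gives the strand of the gene, 5′ to 3′:
Cdc6 promoter, chr11:98907901-98908200, plus strand: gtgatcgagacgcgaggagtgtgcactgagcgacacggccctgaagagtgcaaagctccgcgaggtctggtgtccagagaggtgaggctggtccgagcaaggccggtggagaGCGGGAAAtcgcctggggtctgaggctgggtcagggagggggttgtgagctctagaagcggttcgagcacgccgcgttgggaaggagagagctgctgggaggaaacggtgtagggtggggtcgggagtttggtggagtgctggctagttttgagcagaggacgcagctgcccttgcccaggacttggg
Pole2 promoter, chr12:69228141-69228440, minus strand: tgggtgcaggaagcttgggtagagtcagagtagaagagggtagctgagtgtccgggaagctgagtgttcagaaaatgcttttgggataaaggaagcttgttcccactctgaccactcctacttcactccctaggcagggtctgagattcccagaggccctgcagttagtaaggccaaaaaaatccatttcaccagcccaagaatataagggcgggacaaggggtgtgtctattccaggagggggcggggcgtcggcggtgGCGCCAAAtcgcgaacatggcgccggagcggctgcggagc
Pold1 promoter, chr7:44548766-44549065, minus strand: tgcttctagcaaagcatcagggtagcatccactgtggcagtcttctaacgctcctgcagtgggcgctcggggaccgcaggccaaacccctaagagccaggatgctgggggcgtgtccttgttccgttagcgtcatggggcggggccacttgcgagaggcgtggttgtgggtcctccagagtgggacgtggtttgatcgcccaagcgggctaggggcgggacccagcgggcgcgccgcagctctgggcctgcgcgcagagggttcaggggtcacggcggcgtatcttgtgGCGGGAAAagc
Of the 32 called-higher genes matched to a promoter, these 3 (9.38%) held either motif. The share was 2.74% (334 of 12174) over all tested genes with a promoter, 46.7% (7 of 15) in the replication list, 0 of 14 in the division list and 0 of 19 for called-lower genes. A match describes letters in this window and was not tested as a binding site.

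All 18 genes of the division list were above 0, with a median of 0.80; 12 had an unadjusted p under 0.05 (background 7.42%), and 2, Pcna and Top2a, passed. The number passing was 5 without L1363P 7.2, 9 without KP 131.03A, 1 without KP 89.01A or KP 40, 0 without KP 90.01A, L1363P 26.2 or L1363P 52, and 6 by DESeq2. Of all genes, 142 of 16692 were called higher without L1363P 7.2, 309 of 16033 without KP 131.03A and 266 of 16147 by DESeq2. The sum of the division list was 2043, 2717 and 2970 CPM in L1363P 7.2, 26.2 and 52, against 929, 1149, 2191, 1487 and 1107 CPM in KP 89.01A, 90.01A, 131.03A, 39 and 40, and only KP 131.03A overlapped the L1363P range. Top2a, the topoisomerase that untangles sister chromosomes, was at 607, 659.9 and 789 CPM in L1363P tumours, against 149, 279, 346, 451 and 200.2 CPM in KP tumours. The groups did not overlap (log2 fold change 1.26, SE 0.29, edgeR adjusted p = 0.0471), but without 90.01A the adjusted p was 0.087. Hjurp, the chaperone that deposits the centromeric histone, was at 139.5, 408 and 163 CPM in L1363P tumours, against 74.8, 51.2, 115, 80.2 and 85.7 CPM in KP tumours. L1363P 26.2 was far above the rest, and the other two L1363P tumours were still above all KP tumours (log2 fold change 1.54, SE 0.26, edgeR adjusted p = 0.013, and 0.0316 without 90.01A). Kif18b, a kinesin that shortens spindle microtubules, was at 53.2, 73.5 and 57.4 CPM in L1363P tumours, against 20.3, 22.1, 28.5, 34.7 and 15.8 CPM in KP tumours. These did not overlap either (log2 fold change 1.34, SE 0.25, edgeR adjusted p = 0.0169, and 0.037 without 90.01A). Of tumours left out one at a time, only L1363P 26.2 ended the calls of Hjurp and Kif18b (edgeR adjusted p = 0.0986 and 0.0843).

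Further called genes act in division or its control. Spc24, part of the kinetochore, was at 17.1 to 30.8 CPM in L1363P tumours and at 6.36 to 10.9 CPM in KP tumours, with a log2 fold change of 1.51 (SE 0.34, edgeR adjusted p = 0.0446). Cep72, a centrosome protein, was at 11.4 to 25.2 CPM in L1363P tumours and at 4.15 to 8.74 CPM in KP tumours (log2 fold change 1.71, SE 0.35, edgeR adjusted p = 0.0267). Cdca8, of the chromosomal passenger complex, and Ckap2l, a spindle protein, rose by 1.23 (edgeR adjusted p = 0.0499) and 1.06 (edgeR adjusted p = 0.0445) on the log2 scale. Pkmyt1, the kinase that holds CDK1 inactive before mitosis, rose by 1.48 (SE 0.33, edgeR adjusted p = 0.0446), with L1363P 7.2 at 10.3 CPM inside the KP range of 5.42 to 10.5 CPM. None of these 5 genes passed without 90.01A, where the edgeR adjusted p was 0.0921 for Spc24, 0.0704 for Cep72, 0.0931 for Cdca8, 0.0889 for Ckap2l and 0.0921 for Pkmyt1. Mki67, the marker of cycling cells read in pathology, was at 319.9, 373 and 540.2 CPM in L1363P tumours, against 206, 163, 460.0, 279.6 and 299 CPM in KP tumours. Its groups overlapped and it was not called (log2 fold change 0.55, SE 0.32, edgeR adjusted p = 0.372). In bulk tissue, more cells of a kind and more RNA per cell cannot be told apart, which holds for this and for every group of genes here.

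Most genes of DNA repair were above 0 without passing one by one. All 12 Fanconi anaemia genes, whose products unhook crosslinked DNA strands, were above 0 with a median log2 fold change of 0.74, and 7 had an unadjusted p under 0.05 (background 7.42%). Their sum was 234 to 289 CPM in L1363P tumours and 144 to 194 CPM in KP tumours, so that the groups did not overlap. Fancd2, the clamp that marks the crosslink, was at 35.2, 40.7 and 26.6 CPM in L1363P tumours, against 9.26, 20.6, 27.8, 14.8 and 9.40 CPM in KP tumours, with KP 131.03A inside the L1363P range (log2 fold change 1.06, SE 0.35, edgeR adjusted p = 0.137, and 0.0373 without 131.03A). In the homologous recombination list 18 of 20 were above 0 (median 0.52, 8 with an unadjusted p under 0.05 against a background of 7.42%, 0 called by edgeR). Of 18 end-joining and resection genes 15 were above 0 (median 0.26), and Polq, the polymerase of microhomology-mediated joining, had a log2 fold change of 0.79 (SE 0.27, edgeR adjusted p = 0.152). By edgeR these 3 lists had 0 called members with or without 90.01A. DESeq2 called 2 genes of the homologous recombination list, and without KP 131.03A edgeR called 6 of that list and 3 Fanconi genes. Among all genes, DESeq2 called 266 of 16147 higher, and edgeR without KP 131.03A called 309 of 16033 higher.

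Called genes that act at stalled or damaged DNA were Chek1, Zranb3 and Mbd4. Chek1, the kinase that slows the cell cycle when replication stalls, was at 29.1, 40.8 and 51.2 CPM in L1363P tumours, against 14.6, 16.1, 23.0, 16.8 and 13.0 CPM in KP tumours. It did not overlap (log2 fold change 1.27, SE 0.25, edgeR adjusted p = 0.0267), though the adjusted p was 0.0556 without 90.01A. Zranb3, which remodels stalled forks, was at 34.7, 32.9 and 24.5 CPM in L1363P tumours, against 13.2, 14.2, 11.7, 14.1 and 15.6 CPM in KP tumours (log2 fold change 1.16, SE 0.24, edgeR adjusted p = 0.0271). Mbd4, a glycosylase that removes thymine from mismatches at methylated sites, rose by 1.10 on the log2 scale (SE 0.23, edgeR adjusted p = 0.0341). Zranb3 and Mbd4 also missed the threshold without 90.01A (edgeR adjusted p = 0.058 and 0.0757). All 3 L1363P tumours were above the KP tumours for each of the 3 genes. Of 13 checkpoint genes, 11 were above 0 with a median of 0.55, and their sum was 811 to 968 CPM in L1363P tumours and 427 to 797 CPM in KP tumours.

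Most target genes of p53 were below 0, while Trp53 itself was not called (log2 fold change 0.16, edgeR adjusted p = 0.826). The cause was not tested. Of 18 targets 14 were below 0, with a median log2 fold change of -0.42; 5 had an unadjusted p under 0.05 in that direction (background 10.4%), 3 did not overlap (background 2.11%) and 0 passed. With RLE size factors, without KP 131.03A, by DESeq2 and by limma, 1 passed in each, Mdm2. In that order, 25 of 16147, 229 of 16033, 520 of 16147 and 37 of 15940 of all genes were called lower. Mdm2, the ligase that degrades p53 and is itself a p53 target, was at 49.6, 48.6 and 48.2 CPM in L1363P tumours, against 151, 74.8, 91.3, 80.1 and 72.7 CPM in KP tumours. The 3 L1363P tumours were nearly equal and below all KP tumours, and the log2 fold change of -0.95 (SE 0.22) missed the threshold (edgeR adjusted p = 0.0556), while its adjusted p in those 4 fits lay between 0.00249 and 0.0497. Aen, a nuclease induced in p53-dependent death, was at 19 to 20.2 CPM in L1363P tumours and at 23.5 to 38.5 CPM in KP tumours, again without overlap (log2 fold change -0.64, SE 0.24, edgeR adjusted p = 0.177). The sums of the 18 genes were close at the edge, at 539 to 646 CPM in L1363P tumours and 648 to 1073 CPM in KP tumours.

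Smarcd2, Kat7, Kat2a and Cbx1, whose products act on chromatin, were also called higher. Each lies on chromosome 11, and Kat2a and Cbx1 were chosen after their values were seen. Smarcd2, a subunit of the SWI/SNF remodelling complex, was at 330.1, 277 and 158 CPM in L1363P tumours, against 111, 74.7, 97.3, 131 and 98.2 CPM in KP tumours. All L1363P tumours were above all KP tumours (log2 fold change 1.32, SE 0.21, edgeR adjusted p = 0.013), and the gene passed in each of the 8 fits that left out 1 adenocarcinoma, with an adjusted p of at most 0.0316. Kat7, the histone acetyltransferase active at replication origins, was at 162, 183 and 174 CPM in L1363P tumours, against 85.5, 136, 74.7, 107 and 68.7 CPM in KP tumours (log2 fold change 0.87, SE 0.17, edgeR adjusted p = 0.0199). For Kat7 the edgeR adjusted p was 0.00377 without 90.01A, its highest KP tumour, and 0.0843 without L1363P 26.2. Kat2a, another histone acetyltransferase, and Cbx1, a heterochromatin protein, rose by 0.84 (SE 0.18, edgeR adjusted p = 0.0356) and 0.71 (SE 0.14, edgeR adjusted p = 0.0267) on the log2 scale, each with all L1363P tumours above all KP tumours. Without 90.01A the adjusted p was 0.0316 for Kat2a and 0.0556 for Cbx1 (edgeR).

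**Figure D2:**
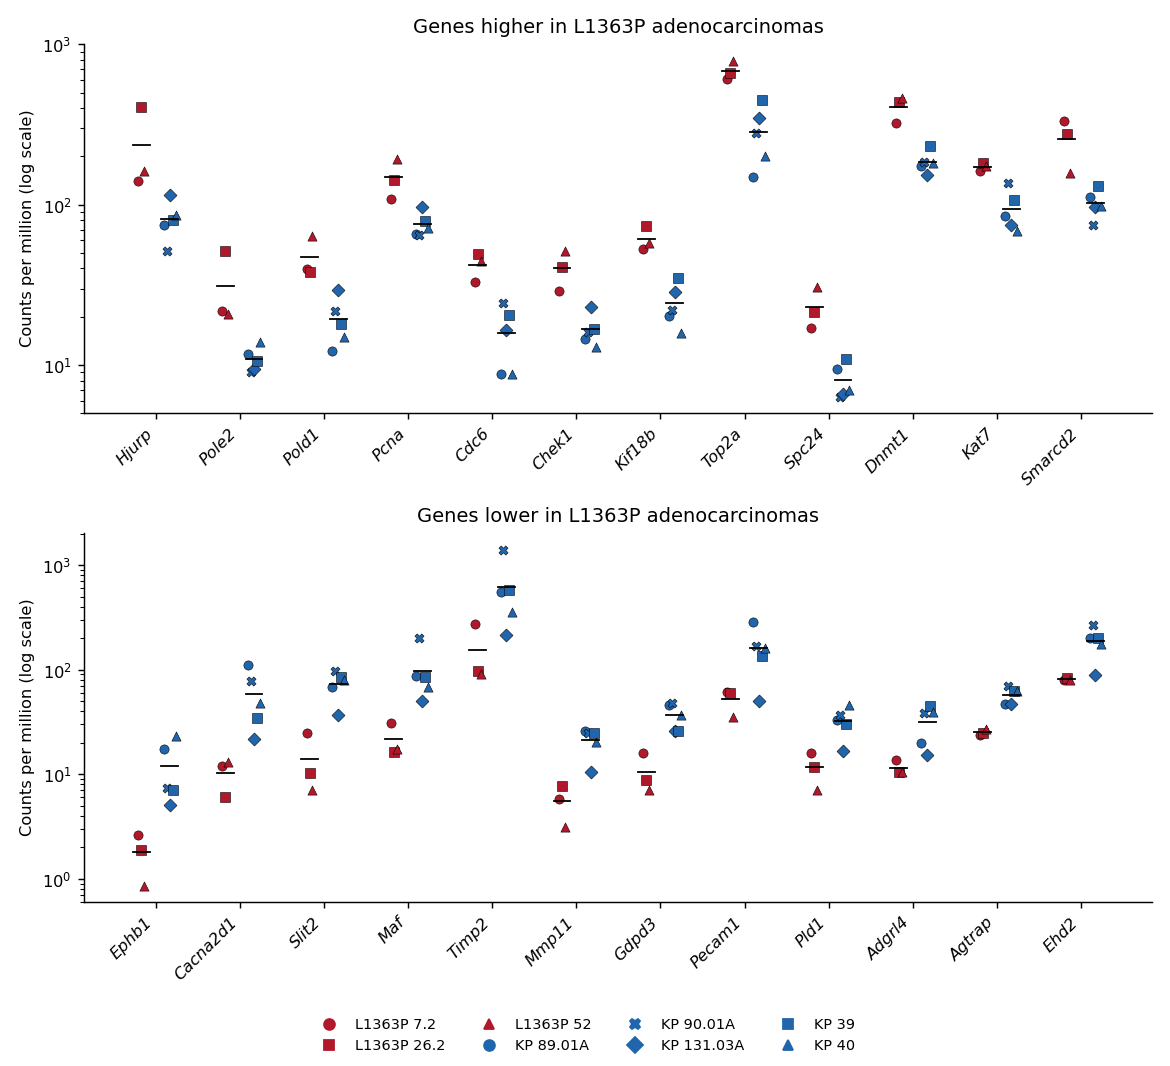
Levels of 24 called genes in CPM on a log axis, one point per adenocarcinoma, L1363P left of KP, with bars at group means; the upper 12 genes were higher and the lower 12 lower in L1363P tumours. Hjurp, Pole2, Pold1, Cdc6 and Smarcd2 show no overlap, while Timp2 and Pecam1 overlap through KP 131.03A.

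Among the 23 genes lower in L1363P tumours were a receptor, a secreted ligand, a transcription factor and a channel subunit. Ephb1, an ephrin receptor, was at 2.65, 1.89 and 0.861 CPM in L1363P tumours, against 17.3, 7.43, 5.11, 6.99 and 23.2 CPM in KP tumours. The groups did not overlap (log2 fold change -2.73, SE 0.56, edgeR adjusted p = 0.0267, and 0.0316 without 90.01A). Slit2, a secreted guidance ligand of ROBO receptors, was at 24.8, 10.3 and 7.07 CPM in L1363P tumours, against 68.2, 97.2, 36.6, 84.4 and 79.0 CPM in KP tumours. It too did not overlap (log2 fold change -2.37, SE 0.46, edgeR adjusted p = 0.0228). Maf, a leucine-zipper transcription factor, was at 31.1, 16.4 and 17.6 CPM in L1363P tumours, against 87.1, 201, 49.7, 84.2 and 67.9 CPM in KP tumours; KP 90.01A was highest and KP 131.03A lowest among KP tumours (log2 fold change -2.17, SE 0.39, edgeR adjusted p = 0.0169, and 0.0843 without L1363P 26.2). Cacna2d1, a calcium channel subunit, was at 6.09 to 13.0 CPM in L1363P tumours and at 22 to 111 CPM in KP tumours (log2 fold change -2.51, SE 0.51, edgeR adjusted p = 0.0267, and 0.058 without 90.01A).

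Mmp11 and Timp2, which act in matrix turnover, were also called lower. Mmp11, a matrix metalloproteinase typical of tumour fibroblasts, was at 5.83, 7.69 and 3.14 CPM in L1363P tumours, against 26.2, 24.6, 10.4, 24.6 and 20.4 CPM in KP tumours. The groups did not overlap, with KP 131.03A nearest to the L1363P tumours (log2 fold change -1.93, SE 0.34, edgeR adjusted p = 0.0169), and the gene passed in all 8 fits that left out 1 adenocarcinoma. Timp2, an inhibitor of metalloproteinases, was at 271, 96.5 and 90.7 CPM in L1363P tumours, against 557, 1404, 217, 573 and 359 CPM in KP tumours. KP 131.03A lay below L1363P 7.2 (log2 fold change -2.02, SE 0.45, edgeR adjusted p = 0.0441), and the adjusted p was 0.0883 without 90.01A. Agtrap, which binds the angiotensin receptor, was at 23.9, 25 and 27.1 CPM in L1363P tumours, against 47.4, 69.4, 47.3, 62.2 and 62.2 CPM in KP tumours. Both groups were tight and apart for Agtrap (log2 fold change -1.19, SE 0.21, edgeR adjusted p = 0.0169, and 0.0316 without 90.01A). Sh3bgrl, a small adaptor protein, was at 137 to 144 CPM in L1363P tumours and at 197 to 434 CPM in KP tumours (log2 fold change -1.12, SE 0.21, edgeR adjusted p = 0.0169, and 0.0316 without 90.01A).

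Pecam1 and Adgrl4, both called lower, mark the vessel wall. Pecam1, the junction protein of endothelial cells, was at 61.8, 60.0 and 35.3 CPM in L1363P tumours, against 287, 168, 49.7, 136 and 161 CPM in KP tumours. KP 131.03A overlapped the L1363P tumours and the other 4 KP tumours were above them (log2 fold change -1.62, SE 0.37, edgeR adjusted p = 0.0446, and 0.0778 without 90.01A). Adgrl4, an adhesion receptor of endothelial cells, was at 10.5 to 13.8 CPM in L1363P tumours and at 15.3 to 44.9 CPM in KP tumours (log2 fold change -1.44, SE 0.32, edgeR adjusted p = 0.0441, and 0.0826 without 90.01A). All 11 genes of the endothelial list were below 0, with a median of -1.26 against -0.04 over all genes; 7 had an unadjusted p under 0.05 (background 10.4%) and 1, Pecam1, passed. The number passing was 6 without KP 131.03A, 1 without L1363P 7.2, 0 without any 1 of the other 6 tumours, 0 by limma and 7 by DESeq2. Over all genes the main fit called 23 of 16147 lower. The count was 229 of 16033 without KP 131.03A, 75 of 16692 without L1363P 7.2 and 520 of 16147 by DESeq2. The list summed to 337, 360.5 and 216 CPM in L1363P 7.2, 26.2 and 52, against 652, 707, 274, 713 and 799.8 CPM in KP 89.01A, 90.01A, 131.03A, 39 and 40.

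All 16 markers of fibroblasts and collagen were below 0 with a median log2 fold change of -1.33 (-1.14 without 90.01A). An unadjusted p under 0.05 stood for 10 of them (background 10.4%), and for 4 without 90.01A (background 1209 of 16114 genes). Of the 16, 2 did not overlap (background 2.11%), and 0 were called by edgeR, 0 by limma and 2 by DESeq2 (520 of 16147 genes lower). The sum was 6497, 4119 and 6079 CPM in L1363P 7.2, 26.2 and 52, against 10909, 29931, 5953, 22849 and 14680.0 CPM in KP 89.01A, 90.01A, 131.03A, 39 and 40. Col3a1, a fibrillar collagen, was at 1336, 776 and 805 CPM in L1363P tumours, against 1489.8, 4429, 1409.7, 6213 and 3573 CPM in KP tumours. Those values did not overlap, but the log2 fold change of -1.82 (SE 0.60) did not pass (edgeR adjusted p = 0.136), while DESeq2 gave an adjusted p of 0.0286. Of 17 mesenchymal regulators 16 were below 0 (median -0.95, 6 with an unadjusted p under 0.05 against a background of 10.4%). For these edgeR called 0, limma 1 (37 of 15940 genes lower) and DESeq2 4 (520 of 16147 genes lower). KP 131.03A was at the L1363P level for fibroblast and endothelial sums, and it was also the KP tumour highest in replication and division sums. The part of these cell types in the called genes was not tested.

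**Figure D3:**
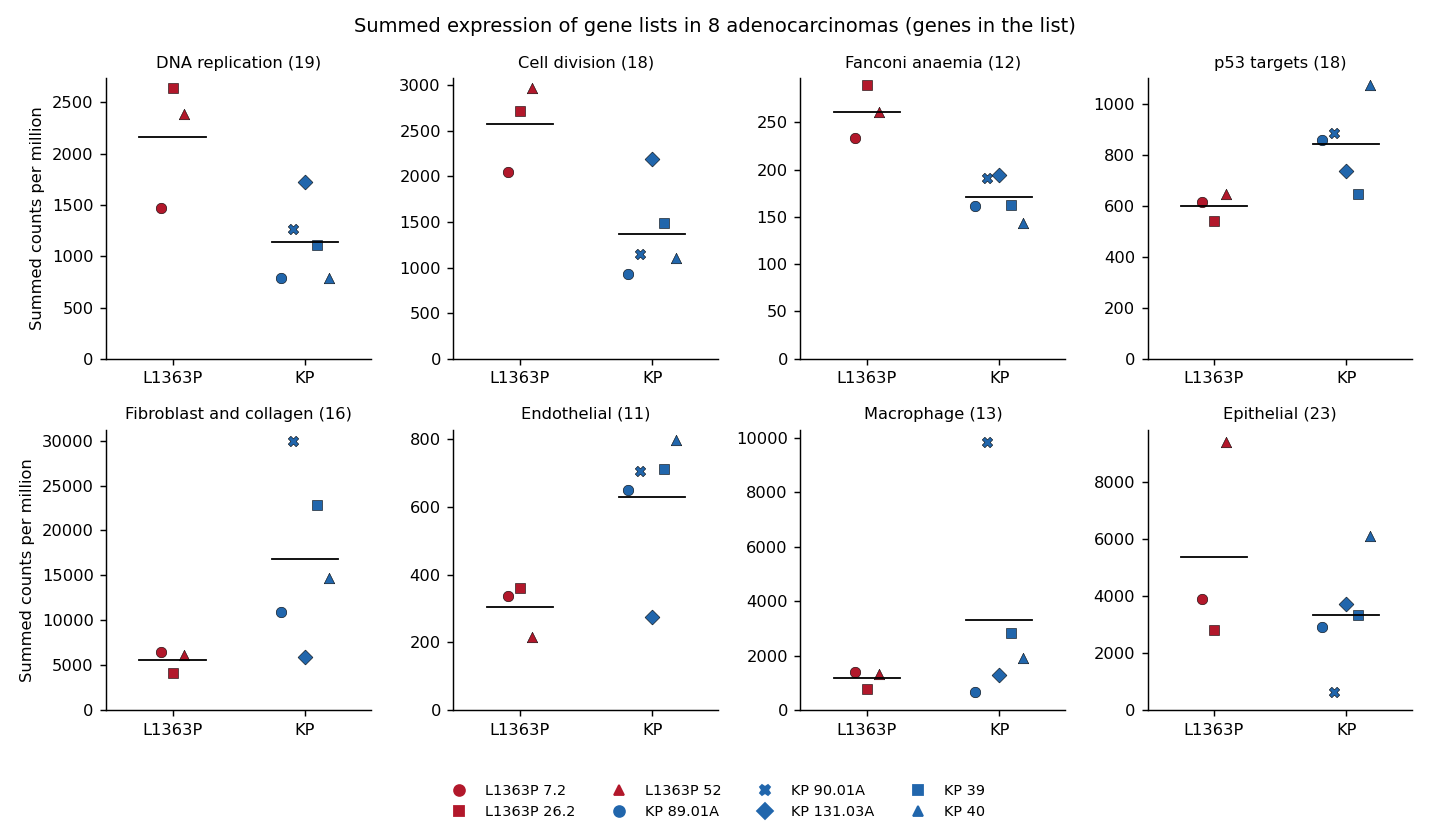
Summed CPM of 8 gene lists in each adenocarcinoma, one point per tumour, L1363P left of KP, with bars at group means. L1363P tumours are higher in the replication, division and Fanconi sums and lower in the fibroblast and endothelial sums, while KP 131.03A lies nearest to them in each of these 5.

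Immune markers were mostly below 0, and nearer to 0 without KP 90.01A. Of 13 macrophage genes 12 were below 0, with a median of -1.34, and -0.46 without 90.01A. Of the 13, 8 had an unadjusted p under 0.05 (background 10.4%). Without 90.01A it was 1 of the 13, near the background of that fit (1209 of 16114 genes). By edgeR 0 of the macrophage genes were called, and by DESeq2 2 (520 of 16147 genes lower). Their sum was 777 to 1406 CPM in L1363P tumours and 659 to 2831 CPM in the other 4 KP tumours, and 9839 CPM in KP 90.01A. Of 19 T and natural killer cell genes 18 were below 0 (median -1.51, and -0.56 without 90.01A). All 20 interferon-response genes were below 0, with a median of -1.66 (-0.62 without 90.01A). An unadjusted p under 0.05 stood for 2 of the 20, near the background of 10.4%, and 0 were called by edgeR or DESeq2. Their sums overlapped, at 345 to 973 CPM in L1363P tumours and 194 to 4232 CPM in KP tumours. Rsad2, an antiviral enzyme induced by interferon, was at 15.3, 5.79 and 11.0 CPM in L1363P tumours, against 1.79, 208, 33.5, 55.6 and 18.4 CPM in KP tumours. KP 89.01A was the lowest of the 8, and the gene was not called (log2 fold change -2.56, SE 1.17, edgeR adjusted p = 0.25).

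Several of the largest fold changes came from a single tumour. Mmgt1, a membrane transport protein, was at 97.9, 109 and 2170.0 CPM in L1363P 7.2, 26.2 and 52, against 92.6, 70.0, 102, 55.1 and 110.1 CPM in KP tumours. Only L1363P 52 was high, and the log2 fold change of 3.20 (edgeR adjusted p = 0.0138) became 0.26 without it (edgeR adjusted p = 0.528). Haus7, a subunit of the augmin spindle complex, was at 18.7, 25.7 and 1086 CPM in L1363P tumours, against 14.5 to 36.6 CPM in KP tumours. Its log2 fold change of 4.01 (edgeR adjusted p = 0.0169) became -0.08 without L1363P 52 (edgeR adjusted p = 0.948). Fabp4, a fatty acid binding protein of fat cells, was at 17.2, 134 and 3585 CPM in L1363P tumours, against 39.3 to 98.6 CPM in KP tumours. In L1363P 52 a list of 9 fat cell genes summed to 3585.7 CPM, of which Fabp4 alone gave 3584.9 CPM. The other fat cell genes of the list were thus almost absent from that tumour. Fabp5, a relative of Fabp4, was at 72.1, 217 and 872 CPM in L1363P tumours, against 43.0 to 119 CPM in KP tumours. The log2 fold changes of 4.18 and 2.57 became 0.14 and 1.14 without L1363P 52, and neither was then called. Fabp4 also missed the threshold without 90.01A (edgeR adjusted p = 0.0757).

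The other single-tumour genes were high in L1363P 7.2 or 26.2. B4galnt2, a glycosyltransferase, was at 61.9 CPM in L1363P 7.2, and at 2.07 and 0.308 CPM in L1363P 26.2 and 52, against 0.128 to 0.574 CPM in KP tumours. Without 7.2 its log2 fold change of 5.91 became 1.75 (edgeR adjusted p = 0.191). Krt6b, a keratin of stratified epithelium, was at 135 CPM in L1363P 26.2, and at 0.162 and 2.52 CPM in L1363P 7.2 and 52, against 0 to 0.583 CPM in KP tumours, and was not called without 26.2 (log2 fold change 2.13, edgeR adjusted p = 0.564) or without 90.01A (edgeR adjusted p = 0.087). Nup155, a nuclear pore protein, was at 418, 153 and 127 CPM in L1363P tumours, against 79.5 to 137 CPM in KP tumours. Without 7.2 its log2 fold change of 1.26 became 0.53 (edgeR adjusted p = 0.218). Drosha, the nuclease that starts microRNA processing, was at 362 CPM in L1363P 7.2, and at 129.7 and 110.2 CPM in L1363P 26.2 and 52, against 71.1 to 150.4 CPM in KP tumours; it passed without 90.01A (log2 fold change 1.27, edgeR adjusted p = 0.0475) and not with it (log2 fold change 1.05, edgeR adjusted p = 0.069).

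Some genes were likewise far higher in individual KP tumours than in the L1363P tumours. Met, the receptor of hepatocyte growth factor, was at 13675 CPM in KP 39, against 30.6 to 171 CPM in L1363P tumours and 69.8 to 254 CPM in the other KP tumours. Nras, a small GTPase, was at 2594 CPM in KP 131.03A, against 94.9 to 212 CPM in L1363P tumours. Ccnd2, a cyclin that drives entry into the cell cycle, was at 1289.6 CPM in KP 89.01A and 3267 CPM in KP 131.03A, against 70.2 to 163 CPM in L1363P tumours. By edgeR these were not called in the comparison of genotypes, while DESeq2 called Met and Ccnd2; for Met the log2 fold change was -4.69 (SE 1.62, edgeR adjusted p = 0.153). Counting genes of at least 10 CPM that stood at least 5 times above every other tumour of the run gave 3, 24 and 14 genes in L1363P 7.2, 26.2 and 52, against 38, 5, 18, 0 and 47 in KP 89.01A, 90.01A, 131.03A, 39 and 40.

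**Figure D4:**
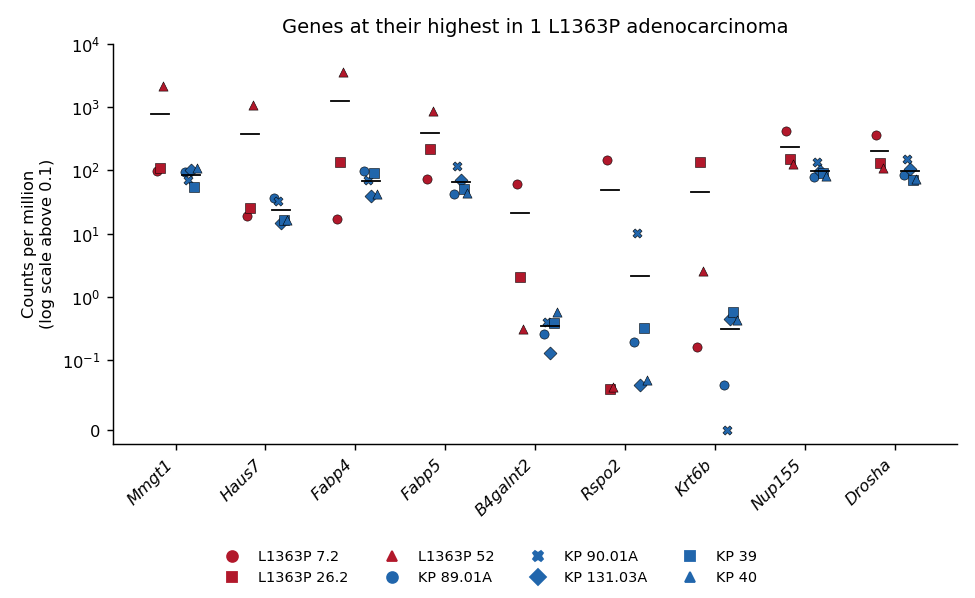
CPM of 9 genes with 1 very high L1363P tumour, one point per adenocarcinoma, L1363P left of KP, on an axis that is logarithmic above 0.1. L1363P 52 stands alone for Mmgt1, Haus7, Fabp4 and Fabp5, L1363P 7.2 for B4galnt2, Rspo2, Nup155 and Drosha, and L1363P 26.2 for Krt6b.

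Of the 43 called-higher genes, 11 lay on chromosome 11. The share of tested genes called in either direction was 0.99% on chromosome 11, 0.906% on X and 0.663% on chromosome 17, against 0.409% of all genes. The 11 run from Kat7 (start 95271853, mm10) to Smarcd2 (end 106272998) and are Kat7, B4galnt2, Cbx1, D030028A08Rik, Scrn2, Med24, Cdc6, Top2a, Kat2a, Kif18b and Smarcd2, and Brca1 lies between them, with its start at 101488761 and its end at 101551955. Of the 11, Cbx1, D030028A08Rik, Scrn2, Med24 and Top2a missed the threshold without 90.01A. Between 90 and 100 Mb of chromosome 11 the median log2 fold change of 137 genes was 0.42, the fifth highest of 236 windows of 10 Mb, and 18 genes were higher without overlap (background 2.27%). In the next window, from 100 to 110 Mb, which holds Brca1, the median of 169 genes was 0.28, rank 19 of 236, and 16 were higher without overlap. Each tumour was then set against the median of the run's tumours. Between 90 and 100 Mb the median deviation was 0.27, 0.44 and 0.007 in L1363P 7.2, 26.2 and 52, against -0.002, 0, -0.46, 0.05 and -0.14 in KP 89.01A, 90.01A, 131.03A, 39 and 40. Between 100 and 110 Mb it was 0.33, 0.38 and -0.005 in L1363P 7.2, 26.2 and 52, against 0.01, -0.03, -0.76, 0.29 and -0.15 in KP 89.01A, 90.01A, 131.03A, 39 and 40. L1363P 52 lay among the KP tumours in both windows, KP 131.03A was the lowest in both, and KP 39 came close to L1363P 7.2 in the second. This placement was noticed after the values were seen, and DNA copy number was not analysed here.

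The same genotypes could be compared in 9 carcinosarcomas of the same run that share no tumour with the adenocarcinomas: 6 L1363P carcinosarcomas labelled at least 75% epithelial, and 3 KP carcinosarcomas. L1363P 54.1 and 54.2, both among the 6, share a number in their labels, which do not say whether they came from 1 animal, and they were counted as separate samples. There 0 genes passed (edgeR quasi-likelihood test), with 1.87% of genes higher and 0.966% lower (2.84% in all) at an unadjusted p under 0.05, while DESeq2 called 8 and limma 0. Leaving out 54.1 gave 0 genes by edgeR, and so did leaving out 54.2. Of the 43 genes higher in L1363P adenocarcinomas, 17 had a log2 fold change above 0 in carcinosarcomas, and of the 23 lower, 10 were below 0; for 0 of the 66 was the unadjusted p under 0.05 in the same direction. The median of the replication list was -0.13 in carcinosarcomas against 0.97 in adenocarcinomas, that of the division list -0.18 against 0.80, and that of the fibroblast list -0.20 against -1.33. For the endothelial list it was -0.12 against -1.26, and for the macrophage list -0.0006 against -1.34. The interferon list kept its direction, at -1.14 against -1.66, with 0 of 20 genes above 0 in carcinosarcomas. So did the T and natural killer cell list, at -0.77 against -1.51. Brca1 was at 43.5 ± 9.10 CPM in 6 L1363P carcinosarcomas and at 65.2 ± 14.4 CPM in 3 KP carcinosarcomas (mean ± SD), a log2 fold change of -0.58.

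Whether the genotype difference itself differed between the tumour types was tested as an interaction. At an unadjusted p under 0.05 stood 9.96% of genes. The adjusted test passed for 1 gene, Pold1 (0.00619% of genes), whose log2 fold change was 1.29 in adenocarcinomas and -0.70 in carcinosarcomas, a difference of 2.00 (SE 0.34, edgeR adjusted p = 0.0458). Pold1 was at 21.5 to 33.8 CPM in L1363P carcinosarcomas and at 31.9 to 58.4 CPM in KP carcinosarcomas, and these overlapped. For Brca1 the difference was 1.58 (edgeR adjusted p = 0.25), and for B4galnt2 the adjusted p was 0.069. The interaction call of Pold1 was lost without KP 90.01A, without L1363P 54.1 or 54.2, with RLE size factors, without the filter on low counts and by limma, and it held in 6 of the 17 fits that left out 1 tumour. DESeq2 called 86 genes, Pold1 among them.

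**Figure D5:**
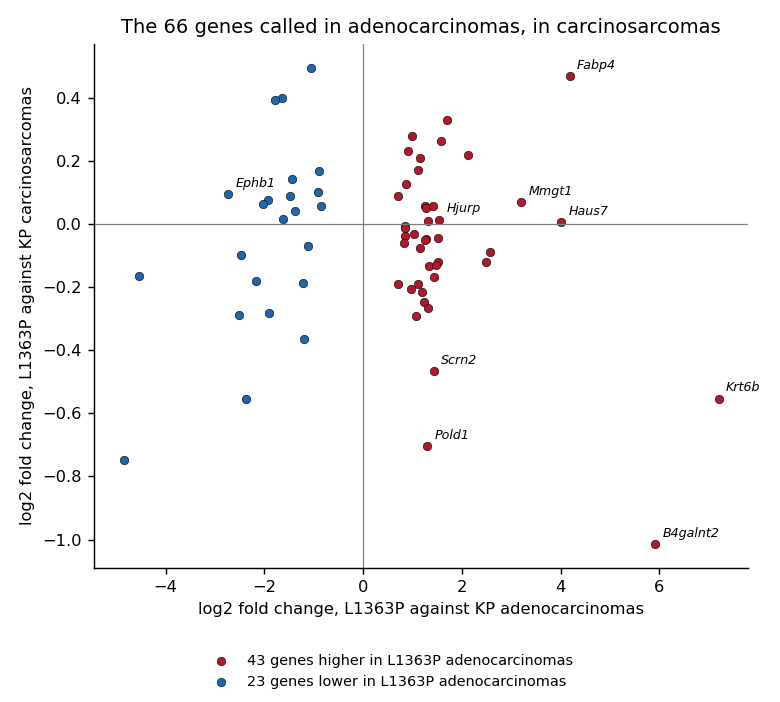
Log2 fold change of L1363P over KP in carcinosarcomas (vertical axis) against the same in adenocarcinomas (horizontal axis) for the 66 called genes, one point per gene. The adenocarcinoma values lie away from 0 by choice of the genes, and the carcinosarcoma values scatter on both sides of 0, with 17 of 43 and 10 of 23 on the same side.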

How the data were processed

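RNA of mouse mammary tumours was sequenced, and run 5625 gave 29 libraries. Per the submitters' processing notes, the authors used cutadapt 2.10, STAR 2.7.3a, featureCounts 2.0.0 and DESeq with build mm10; no role or order is recorded for them. The deposited table holds raw counts per gene (39438 genes), and a second deposited table holds the authors' log2 normalized values, which served only one alternative test. Sequencing depth limits the precision of low counts.

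Counts were analysed in R 4.3.3 with edgeR 4.0.16: TMM scaling, filterByExpr at a minimum count of 10, and a quasi-likelihood fit of 29 libraries in 6 groups with 23 residual degrees of freedom. Those groups were the L1363P and KP adenocarcinomas, KP carcinosarcomas, L1363P sarcomatoid tumours, and L1363P carcinosarcomas divided at a labelled epithelial share of 75%. P-values were Benjamini-Hochberg adjusted over all genes tested and called under 0.05. Levels are CPM on TMM-scaled library sizes. Alternatives used DESeq2 1.42.0, limma 3.58.1, other scaling, filters and groupings, and each tumour left out. The fit was also run on simulated counts with known changes in the L1363P adenocarcinomas. Those counts held no other differences between tumour types, so the run does not cover such differences. The compared samples and the 39 gene lists were chosen with earlier results of these data known, so no list was given a test of its own.

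Genes named were the Brca1 set, the called genes with the largest fold changes of at least 1 on the log2 scale and an average log2 CPM of 1 or more (predicted and Rik genes left out), further genes by the same rule from the fit without 90.01A, and the list members with the smallest p. Outside that rule, chosen after their values were seen, were Kat2a, Cbx1, Med24, Dnmt1, Chtf18, Cdca8, Ckap2l, Pkmyt1, Zranb3, Mbd4, Sh3bgrl, Ehd2, Mki67, Epcam, Krt14, Vim, Yap1, Nsdhl, Mospd1, Scrn2, Ces1d and D030028A08Rik. Of the tested genes, 15611 had a position and 12174 a promoter in RefSeq (GRCm38.p6), matched by symbol. Some results are not reported here.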

Additional observations from a re-analysis of the deposited data

Results flagged for a closer look

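Among 79 sets of 5 KP adenocarcinoma values examined (levels of named genes and list sums), 7 held a tumour that stood apart by Dixon's 95% criterion, and chance flags about 1 in 20 groups. KP 131.03A was high for Cep72 (8.74 CPM) and for the summed ribosomal protein genes (17636 CPM), and low for Mmp11 (10.4 CPM) and for the summed endothelial genes (274 CPM). KP 90.01A was low for the summed luminal genes (150.1 CPM) and high for the summed T and natural killer cell genes (213 CPM) and drug efflux genes (561 CPM). The genotype difference of Pold1 differed between tumour types by 2.00 on the log2 scale, by the interaction test.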

How the results depend on the processing

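No paired analysis was possible because the groups compared share no replicate number in the labels. The counts of 43 higher and 23 lower genes were 36 and 25 with RLE size factors, with 59 of the 66 genes still called, 15 and 7 without a filter on low counts (20 kept), 23 and 11 with the L1363P carcinosarcomas as 1 group (34 kept), 266 and 520 by the DESeq2 Wald test (63 kept), 30 and 37 by limma on the deposited log2 values (42 kept), and 0 and 0 in the 2 groups alone, with or without KP 90.01A (366 higher and 445 lower at an unadjusted p under 0.05 without it). Leaving out 1 adenocarcinoma gave 15 to 309 higher and 1 to 229 lower. The largest counts came without KP 131.03A (all 66 kept) and without L1363P 7.2 (142 and 75), and the smallest number kept, 16, without L1363P 26.2; without KP 39 there were 21 and 19, and without KP 40 18 and 13. The cause was not tested. The replication list stayed at 18 or 19 of 19 above 0 under every setting, with a median of 0.80 to 1.24, and the fibroblast list at 16 of 16 below 0. In carcinosarcomas 8 genes passed with DESeq2, and 0 to 2 with 1 tumour left out (2 without KP 5). The interaction was called for 0 genes with RLE factors, without the filter and by limma, for 2 with the carcinosarcomas as 1 group, for 86 by DESeq2, and for 0 to 23 with 1 tumour left out (23 without KP 131.03A, 7 without L1363P 7.2). Brca1 passed by DESeq2 alone, at 0.97, and lay between 0.82 and 1.25 with 1 tumour left out. Among the called named genes, Drosha and the Brca1 set, Haus7 reversed to -0.0756 without L1363P 52. Its highest value with 1 tumour left out was 4.6. Brca1 aside, 477 of the other recomputed values of these genes kept their side of the threshold. A further 332 lost it and 8 gained it, in the same direction. Of 123 other genes picked for naming that did not pass, 43 passed under at least 1 alternative.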

Other observations

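Among markers of tissue outside the epithelium, skeletal muscle genes were high in 2 KP tumours. Their sum was 1.84 to 10.5 CPM in L1363P tumours, against 11.6, 4.08, 633, 5.18 and 2278 CPM in KP 89.01A, 90.01A, 131.03A, 39 and 40. Ckm, the muscle creatine kinase, was listed at 0.0540, 0 and 0 CPM in L1363P tumours and at 43.9 and 120.1 CPM in KP 131.03A and 40. The squamous keratin and envelope genes were highest in L1363P 26.2, at 302 CPM, against 11.7 and 109 CPM in L1363P 52 and 7.2 and 15.1 to 149 CPM in KP tumours.

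The drug efflux list held Abcb1a, the transporter behind resistance to several chemotherapy drugs. It was at 4.59, 2.13 and 1.6 CPM in L1363P tumours, against 3.89, 44.4, 8.74, 12.4 and 11.8 CPM in KP tumours (log2 fold change -2.54, SE 0.64, edgeR adjusted p = 0.0676, and 0.00228 by DESeq2). All 5 genes of the list were below 0, with a median of -2.18, and -1.34 without KP 90.01A. Nsdhl, an enzyme of sterol synthesis, at 41.5, 40.0 and 74.4 CPM in L1363P tumours and 25.9 to 31.5 CPM in KP tumours, rose by 0.91 on the log2 scale (SE 0.20, edgeR adjusted p = 0.0376), and Acat2, which makes acetoacetyl-CoA, rose by 1.58 (SE 0.36, edgeR adjusted p = 0.0446). Nsdhl was chosen after its values were seen, and neither gene passed without KP 90.01A (edgeR adjusted p = 0.058 and 0.0921).

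By position, X-linked genes high in L1363P 52 included Mospd1 (242 CPM, against 25.5 and 28.9 CPM in the other two L1363P tumours and 17.8 to 42.3 CPM in KP tumours), Mmgt1 and Haus7. Windows of 10 Mb with the highest median log2 fold change were 30 to 40 Mb (0.72) and 10 to 20 Mb (0.68) of chromosome 15. Both of these windows held 0 called genes and 0 genes without overlap between the groups. The lowest was 0 to 10 Mb of chromosome 9 (-1.52, and 0.005 without KP 90.01A).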
